A study of Mus musculus with 14 samples.

Results

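The writers and erasers of DNA methylation and the proteins that guard imprints were followed through 10 genes in mouse embryonic stem cells (ESC) and embryoid bodies (EB), the aggregates in which such cells differentiate. The members were chosen by symbol, as all probe sets of Dnmt1, Dnmt3a, Dnmt3b, Dnmt3l, Tet1, Tet2, Tet3, Uhrf1, Zfp57 and Trim28, which gave 23 of 45101 probe sets on the array and 10 of 18193 genes. The array was read in 14 cultures of 4 groups. TKO EB had 5 arrays (lines 2-55-2, 14-14-4, 7-4-1, Dutch and Ta1-12) and WT EB had 3 (lines B21, J1 and R1). TKO ESC had 3 arrays (lines 7-4-1, Dutch and Ta1-12) and WT ESC had 3 (lines B21, J1 and R1). WT is wild type, and TKO was taken to stand for the triple knockout that removes Rb1, Rbl1 and Rbl2, the pocket protein genes that restrain E2F factors and entry into S phase. That reading comes from the series title and common usage, since the labels do not spell it out. No other treatment is labelled in any group, and the time of EB culture and the alleles are not given in the sources used here. Each array of a group was 1 cell line, and the series text calls these biological replicates. Values of single arrays are given in the order in which the lines are listed above.

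DNA methylation is laid down on cytosines of CpG sites by the de novo enzymes Dnmt3a and Dnmt3b, which Dnmt3l, a relative without catalytic activity, stimulates. At replication Uhrf1 binds hemimethylated DNA and brings in Dnmt1, which copies the mark to the new strand. The Tet enzymes oxidise methylcytosine, the first step of its removal. Zfp57 binds a methylated motif at imprinting control regions and recruits Trim28, the scaffold of a heterochromatin complex that protects the mark there while the rest of the early embryo's genome loses it.

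Array medians of intensity ran between 83.2 and 107.9, a range of 0.37 on the log2 scale, and the number of arrays limits the precision. Centring the arrays on their medians moved the median difference of all probe sets in WT EB against WT ESC from 0.06 to -0.15. Small differences between the stages thus depend on the scaling. As a check of the labels, Rbl1 (probe set 1424156_at) read 31.7, 15.9, 38.3, 377 and 1096 in TKO EB against 586, 1090 and 493 in WT EB, and 24.5, 250 and 493 in TKO ESC against 694, 462 and 356 in WT ESC. Both arrays labelled TKO of line Ta1-12 were within or above the WT range, and the sources used here do not place the probes relative to the deleted part. On a dimmer Rbl1 probe set (1425166_at) TKO EB Dutch, at 136, also lay within the WT EB range of 114 to 174. TKO ESC Dutch, at 88.2, lay below the WT ESC range of 297 to 413 there. On the brighter probe set of each gene, Rb1 (lowest to highest, 301 to 913 in TKO EB against 407 to 1018 in WT EB) and Rbl2 (297 to 1099 against 723 to 1727) overlapped between the genotypes, as they did in ESC. The dimmer Rbl2 probe set did not overlap in EB, at 94.3 to 253 in TKO against 255 to 441 in WT. That gap was narrow, between 253 in TKO EB Ta1-12 and 255 in WT EB R1, and in ESC this probe set overlapped. Counts of members and of gene lists in comparisons with TKO EB are also given without line Ta1-12. Pou5f1, the defining factor of pluripotent cells, read 1542, 6133, 147, 7410 and 17.1 in TKO EB against 38.8, 32.8 and 55.2 in WT EB, and 9880 to 12950 over the 6 ESC arrays. The TKO EB arrays of lines Dutch and 14-14-4 were thus near the ESC level, and 2-55-2 lay between. Over 10 pluripotency markers the summed intensity was 5047 to 74076 in TKO EB, against 3876 to 4709 in WT EB. It was 95337 to 101224 in TKO ESC, against 74911 to 99571 in WT ESC. In bulk cultures, fewer cells of a type and less RNA per cell cannot be told apart.

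The loci of the members, in RefSeq on build GRCm38.p6, include Dnmt3a at chr12:3801559-3914443, Dnmt1 at chr9:20907206-20959888 and Uhrf1 at chr17:56303337-56323486. RefSeq promoter windows, each running from 250 bases before to 50 bases after a start, were found for all 10 genes, 19 windows in all. Dnmt3a is shown because its probe sets disagreed. Its long and short forms start from different promoters, the short form being the main one of mouse ESC, and the 2 windows below lie 84.6 kb apart on the plus strand. Capitals mark CpG sites, the substrate of these enzymes. The upstream window holds 47 of them and the internal window 18, against a median of 7 over all 32851 windows.
Dnmt3a upstream start, chr12:3806910-3807209: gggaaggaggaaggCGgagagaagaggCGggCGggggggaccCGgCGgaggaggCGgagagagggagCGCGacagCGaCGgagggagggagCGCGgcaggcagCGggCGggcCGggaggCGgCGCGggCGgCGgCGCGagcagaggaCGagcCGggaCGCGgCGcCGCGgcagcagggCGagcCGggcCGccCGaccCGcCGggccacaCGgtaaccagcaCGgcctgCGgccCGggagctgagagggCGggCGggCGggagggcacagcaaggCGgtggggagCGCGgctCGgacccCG
Dnmt3a internal start, chr12:3891494-3891793: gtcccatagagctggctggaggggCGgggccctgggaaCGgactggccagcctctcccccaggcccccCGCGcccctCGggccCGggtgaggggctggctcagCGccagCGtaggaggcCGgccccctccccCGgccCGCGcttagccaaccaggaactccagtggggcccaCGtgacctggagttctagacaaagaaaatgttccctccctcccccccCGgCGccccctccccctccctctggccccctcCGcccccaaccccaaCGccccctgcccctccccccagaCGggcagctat
Uhrf1 and Dnmt1 are shown because both lay within or above the range of the 6 ESC arrays in 4 of 5 TKO EB arrays. In these 2 windows capitals mark the letters TTTNNCGC on either strand, where N is any base. That is a looser form of the core that E2F factors bind, so a match need not be an E2F site. Over all windows 5.17% hold TTTNNCGC, and among the 19 member windows 4 do, of Dnmt1, Uhrf1 (2 windows) and Zfp57. These letters include a CpG, and the Dnmt1 and Uhrf1 windows shown hold 33 CpG sites each, against the median of 7. The 5.17% is not matched for CpG content. The Dnmt1 window shown, on the minus strand, holds TTTNNCGC 3 times, of which 2 matches overlap, and the Uhrf1 window shown, on the plus strand, once. The other Dnmt1 windows hold no match. These matches are descriptions of the letters, and no binding was measured.
Dnmt1 start, chr9:20952574-20952873: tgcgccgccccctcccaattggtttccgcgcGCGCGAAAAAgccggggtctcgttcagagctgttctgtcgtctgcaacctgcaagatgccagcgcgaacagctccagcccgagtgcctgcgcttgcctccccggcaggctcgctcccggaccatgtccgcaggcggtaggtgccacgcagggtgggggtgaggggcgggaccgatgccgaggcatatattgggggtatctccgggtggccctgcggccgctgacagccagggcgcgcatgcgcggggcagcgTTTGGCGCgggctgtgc
Uhrf1 start, chr17:56304063-56304362: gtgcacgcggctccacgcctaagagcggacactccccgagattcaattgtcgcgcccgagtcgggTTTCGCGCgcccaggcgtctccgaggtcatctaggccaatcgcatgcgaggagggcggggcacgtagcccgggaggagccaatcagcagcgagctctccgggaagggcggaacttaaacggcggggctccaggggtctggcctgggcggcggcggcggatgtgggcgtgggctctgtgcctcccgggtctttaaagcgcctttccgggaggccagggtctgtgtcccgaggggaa

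Of the 23 member probe sets, 22 passed the filter on low signal, and these covered 9 genes. The single Tet3 probe set (1439324_at) did not pass. The passing probe sets were tested with limma in a model with 1 mean per group, with p-values adjusted over the 31061 probe sets tested, a threshold of 0.05, and the probe set with the highest mean standing for the gene in counts. Differences are on the log2 scale, with intensities below 32 set to 32, and errors are standard errors of the fit. The fit shares the spread of a probe set over all groups. Errors and intervals of ESC or WT comparisons thus also carry the spread among TKO EB lines.

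Most of the set was lower in EB than in ESC in both genotypes. In TKO EB against TKO ESC, 7 of the 9 member genes fell and none rose, where over all 14364 genes tested 15.1% fell and 21% rose. The median difference of the 9 was -1.57, against 0.08 over all genes. WT EB against WT ESC gave 7 of 9 lower and none higher as well, where 17.4% of all genes fell and 26.2% rose, with medians of -1.51 and 0.13. Dnmt3b, Dnmt3l, Tet1, Zfp57 and Trim28 fell in both genotypes. The probe set that stands for Dnmt3a fell in both as well, while 2 other probe sets of that gene rose, so its count as a falling gene rests on the choice of probe set. Tet2 was the other call in TKO and Uhrf1 the other call in WT. By probe set, 2 rose and 13 fell of 22 in each of these comparisons, where 18.2% of all probe sets rose and 17% fell in TKO, and 22.8% rose and 17.7% fell in WT. EB and ESC arrays did not overlap for 15 of the 22 in TKO, where 36.2% of all probe sets did not, and for 16 of the 22 in WT, where 57.6% did not. The split over all genes was 3023 higher and 2171 lower in TKO and 3760 higher and 2496 lower in WT. After quantile normalization it was 2658 higher and 2824 lower in TKO and 3038 higher and 3500 lower in WT, and all 9 member genes were then called lower in WT.

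**Figure D1:**
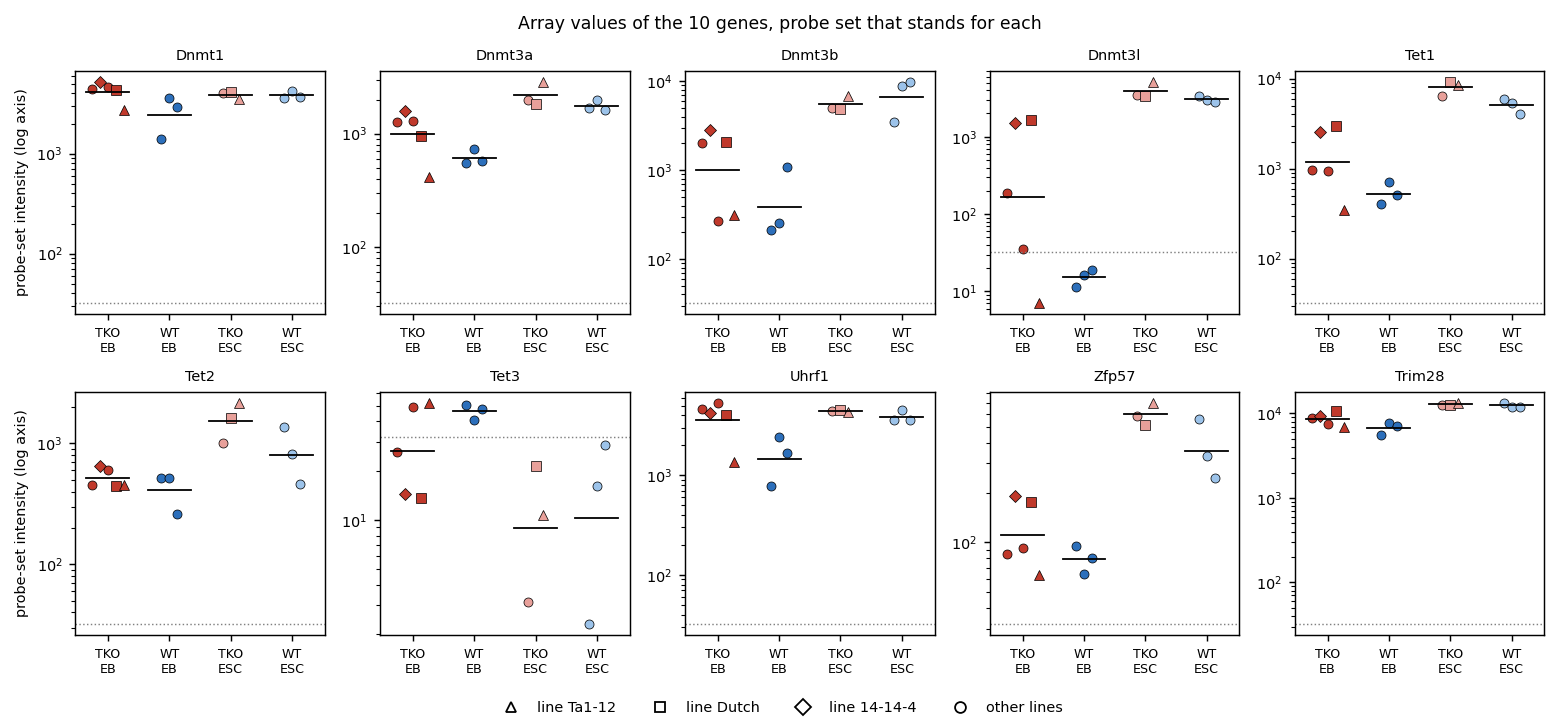
Intensity on a log axis of the probe set that stands for each member gene, in every array, by group (TKO EB, WT EB, TKO ESC, WT ESC), with symbols for lines Ta1-12, Dutch, 14-14-4 and the others, bars at the geometric mean and the floor of 32 dotted. Dnmt3l lay below the floor in all 3 WT EB arrays and between 2844 and 5154 in the 6 ESC arrays.

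**Figure D2:**
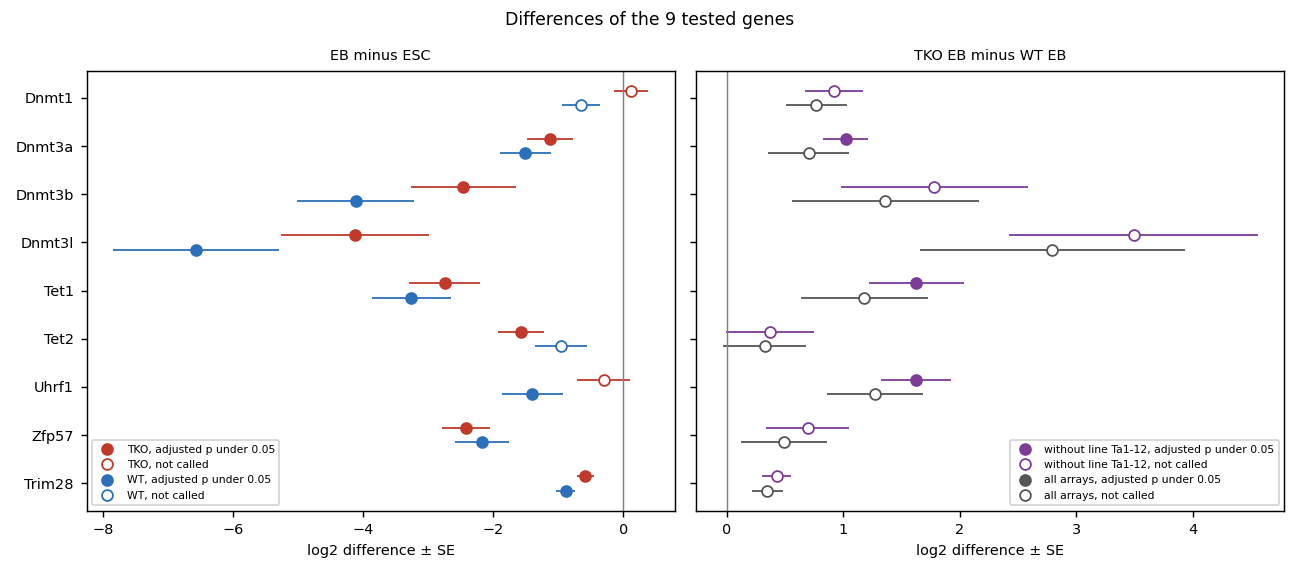
Log2 differences with standard errors of the 9 tested genes from limma, on the left EB minus ESC in TKO (red) and WT (blue), on the right TKO EB minus WT EB without line Ta1-12 (purple) and with all arrays (grey), with filled points where the adjusted p is under 0.05. In EB against ESC the points of Dnmt3l lie lowest, at -4.13 in TKO and -6.57 in WT, and those of Dnmt1 lie nearest 0, at 0.11 in TKO and -0.65 in WT.

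Dnmt3l, the stimulating partner of the de novo enzymes, fell furthest in size. It read (1425035_s_at) 188, 1524, 35.3, 1662 and 7.06 in TKO EB, 11.3, 16.2 and 19.1 in WT EB, 3431, 3346 and 5154 in TKO ESC, and 3367, 2947 and 2844 in WT ESC. All WT EB arrays lay below the floor and none overlapped WT ESC, while in TKO EB lines Dutch and 14-14-4 stayed nearest the ESC level and Ta1-12 was below the floor. In TKO EB against TKO ESC the log2 difference was -4.13 ± 1.14 (adjusted p = 0.0139), and leaving out the TKO ESC array of line Ta1-12 ended that call (-3.93, adjusted p = 0.0543). In WT EB against WT ESC it was -6.57 ± 1.27 (adjusted p = 0.00196), at least 95.1-fold lower, since all 3 WT EB arrays were set to the floor. EB minus ESC within a line was -6.60 in 7-4-1 and -7.33 in Ta1-12 but -1.01 in Dutch, against -6.47 to -6.72 in the 3 WT lines. The suffix of this probe set marks probes that can match more than 1 transcript.

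Dnmt3b, a de novo enzyme prominent in the early embryo, also fell. It read (1449052_a_at) 2004, 2843, 267, 2073 and 310 in TKO EB, 211, 256 and 1077 in WT EB, 4998, 4878 and 6822 in TKO ESC, and 3476, 8867 and 9872 in WT ESC. The EB and ESC arrays did not overlap in either genotype, and within TKO EB lines 7-4-1 and Ta1-12 lay in the WT EB range and the others above it. The difference was -2.47 ± 0.81 in TKO (adjusted p = 0.0309) and -4.12 ± 0.90 in WT (adjusted p = 0.00373). The second probe set (1418351_a_at) gave -2.75 ± 0.77 in TKO (adjusted p = 0.0146) and -4.26 ± 0.86 in WT (adjusted p = 0.00240). For the first probe set the TKO call ended when TKO EB 7-4-1 (-1.99, adjusted p = 0.0579) or TKO EB Ta1-12 (-2.04, adjusted p = 0.0596) was left out, and also without TKO ESC 7-4-1 (adjusted p = 0.0737), Dutch (0.0724) or Ta1-12 (0.0998). The second probe set lost it only without TKO ESC Ta1-12 (adjusted p = 0.0585).

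Dnmt3a, the other de novo enzyme, had 5 probe sets, and they disagreed in direction. The one that stands for the gene (1423064_at) read 1275, 1571, 1282, 951 and 414 in TKO EB, 551, 738 and 575 in WT EB, 1988, 1843 and 2875 in TKO ESC, and 1698, 1976 and 1603 in WT ESC. It was lower in every EB array than in any ESC array of the same genotype, by -1.13 ± 0.35 in TKO (adjusted p = 0.0241) and -1.51 ± 0.39 in WT (adjusted p = 0.00901). Probe set 1460324_at ran the other way, with 2021, 1981, 2454, 861 and 2709 in TKO EB, 3002, 2948 and 1687 in WT EB, 221, 451 and 379 in TKO ESC, and 318, 548 and 445 in WT ESC. It rose by 2.48 ± 0.37 in TKO (adjusted p = 4.37e-04, 5.58-fold) and by 2.53 ± 0.42 in WT (adjusted p = 8.06e-04, 5.78-fold), without overlap in either genotype and with line Dutch lowest among the EB arrays. Probe set 1423063_at rose with it, by 1.92 ± 0.44 in TKO (adjusted p = 0.00540) and 2.03 ± 0.49 in WT (adjusted p = 0.00652). Without line Ta1-12 both rises in TKO were still called (2.43, adjusted p = 0.00516, and 1.98, adjusted p = 0.0234).

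The remaining pair of Dnmt3a probe sets fell between these. Probe set 1423066_at read 595 to 1118 in TKO EB, against WT EB at 622 to 1345, and 1193 to 1930 in TKO ESC and 1191 to 1462 in WT ESC. It fell in TKO (-0.91 ± 0.29, adjusted p = 0.0270), a call that ended without TKO EB Ta1-12 (adjusted p = 0.0529), TKO ESC 7-4-1 (0.0785) or TKO ESC Ta1-12 (0.123), and was not called in WT (-0.47 ± 0.32, adjusted p = 0.252). Probe set 1423065_at read 204 to 562 in TKO EB, against WT EB at 225 to 523, and 226 to 345 in TKO ESC and 211 to 282 in WT ESC, with no call in TKO (0.53 ± 0.34, adjusted p = 0.235) or WT (0.63 ± 0.38, adjusted p = 0.197), except in WT without WT EB R1 (1.01, adjusted p = 0.0464). The fall of 1423064_at in TKO was also not called without TKO ESC 7-4-1 (adjusted p = 0.0539) or TKO ESC Ta1-12 (-0.93, adjusted p = 0.111). The sources used here do not place the probe sets relative to the upstream and internal starts. No statement on the total level of Dnmt3a follows from signals that move in opposite directions.

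**Figure D3:**
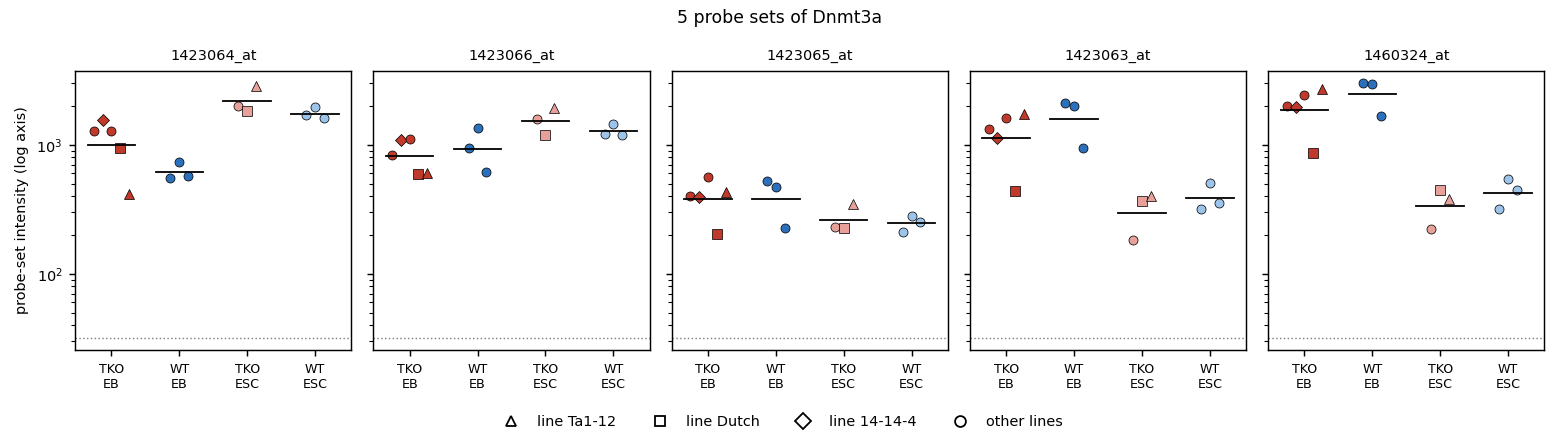
Intensity on a log axis of the 5 Dnmt3a probe sets in each of the 14 arrays, by group, with bars at the geometric mean. Probe sets 1460324_at and 1423063_at are higher in every EB array than in any ESC array of the same genotype, and 1423064_at is lower.

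Uhrf1, which finds hemimethylated DNA at the fork, was not called in TKO EB against TKO ESC and fell in WT EB. It read (1415810_at) 4602, 4272, 5347, 3999 and 1348 in TKO EB, 774, 2443 and 1681 in WT EB, 4395, 4480 and 4306 in TKO ESC, and 3562, 4514 and 3624 in WT ESC. Among the TKO EB arrays 4 lay above every WT EB array, of which 2-55-2 and 7-4-1 were above every TKO ESC array and 14-14-4 and Dutch below every one, and Ta1-12 lay in the WT EB range. In TKO the difference between EB and ESC was -0.31 (95% interval -1.20 to 0.59, adjusted p = 0.589). In WT the EB arrays did not overlap the ESC arrays, and the difference was -1.40 ± 0.46 (adjusted p = 0.0288), or 2.64-fold lower. The WT call ended without WT EB B21 (-0.94, adjusted p = 0.131) or any WT ESC array (adjusted p = 0.0583 without B21, 0.0849 without J1 and 0.0561 without R1). The second probe set (1415811_at) gave -0.56 ± 0.50 in TKO (95% interval -1.64 to 0.52, adjusted p = 0.399) and -1.85 ± 0.56 in WT (adjusted p = 0.0188), and the WT call ended without WT EB B21 (adjusted p = 0.0855) or WT ESC J1 (0.0638). The difference between the genotypes' changes was 1.09 (95% interval -0.25 to 2.43, adjusted p = 0.965), so a genotype difference in the change was not shown over all arrays.

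Dnmt1, the maintenance enzyme that Uhrf1 brings in, showed the same order at a smaller size. It read (1422946_a_at) 4380, 5237, 4607, 4363 and 2758 in TKO EB, 1415, 3577 and 2921 in WT EB, 4029, 4087 and 3501 in TKO ESC, and 3581, 4268 and 3721 in WT ESC. In TKO EB, 4 arrays exceeded every TKO ESC array and Ta1-12 was lowest, while in WT EB line B21 stood lowest. The difference was 0.11 ± 0.26 in TKO (95% interval -0.45 to 0.68, adjusted p = 0.760) and -0.65 ± 0.29 in WT (95% interval -1.28 to -0.02, adjusted p = 0.0927). Without WT EB J1 the fall in WT was called (-0.92, adjusted p = 0.0301), as it was after centring on array medians (-0.85, adjusted p = 0.0488). Of the other Dnmt1 probe sets, 1447877_x_at fell in WT (-0.93 ± 0.34, adjusted p = 0.0417) and 1435122_x_at was not called (-0.73 ± 0.36, adjusted p = 0.119). The call of 1447877_x_at was near the threshold and ended when any of 9 arrays was left out, with adjusted p between 0.0526 and 0.186. Among the 9 were TKO EB 2-55-2 and all TKO ESC arrays, which are outside this comparison. Without them the difference stayed at -0.93, and they enter only through the spread shared over the groups. The suffix x marks probes that may bind similar sequences elsewhere.

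Tet1, a main methylcytosine oxidase of mouse ESC, fell on 3 of its 4 probe sets. The one that stands for the gene (1455425_at) read 975, 2528, 937, 2984 and 343 in TKO EB, 400, 708 and 509 in WT EB, 6452, 9240 and 8530 in TKO ESC, and 5868, 5364 and 4038 in WT ESC. No EB array overlapped an ESC array of its genotype, and lines Dutch and 14-14-4 were the highest of the EB arrays. The fall was -2.75 ± 0.54 in TKO (adjusted p = 0.00234, 6.72-fold) and -3.26 ± 0.61 in WT (adjusted p = 0.00158, 9.59-fold). Probe set 1429448_s_at gave -2.86 ± 0.59 and -3.66 ± 0.66, and 1419896_at gave -3.24 ± 0.50 and -3.30 ± 0.56, in TKO and in WT. The 4th, 1419897_at, was dim, between 36.7 and 110 over the 14 arrays, and was not called in TKO (-0.19 ± 0.28, adjusted p = 0.614) or WT (0.47 ± 0.31, adjusted p = 0.243).

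Tet2, also an oxidase of ESC, fell in TKO and was not called in WT. It read (1455300_at) 455, 654, 608, 443 and 456 in TKO EB, 514, 521 and 261 in WT EB, 1017, 1636 and 2169 in TKO ESC, and 1362, 815 and 465 in WT ESC. The WT ESC arrays spread widely, and R1 lay among the WT EB arrays. The difference was -1.57 ± 0.36 in TKO (adjusted p = 0.00505) and -0.96 ± 0.40 in WT (95% interval -1.83 to -0.10, adjusted p = 0.0701), called without WT ESC R1 (-1.36, adjusted p = 0.0206). After centring on array medians the fall in WT was called too (-1.17, adjusted p = 0.0279). Probe set 1438781_at gave -1.69 ± 0.44 in TKO (adjusted p = 0.00973, or 0.0572 without TKO ESC Ta1-12) and -0.72 ± 0.49 in WT (adjusted p = 0.251). The difference between the changes of 1455300_at was -0.61 (95% interval -1.77 to 0.55, adjusted p = 0.965).

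Tet3, the oxidase of the zygote, was near or below the floor throughout. It read 26.1, 14.5, 49.2, 13.6 and 52.0 in TKO EB, 50.7, 41.0 and 47.8 in WT EB, 3.14, 21.2 and 10.7 in TKO ESC, and 2.29, 16.2 and 28.6 in WT ESC. All 6 ESC arrays were under 32, and in WT EB all 3 were above it. Signals this low were not tested.

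Zfp57, the zinc finger protein of imprinting control regions, fell in both genotypes. It read (1450929_at) 84.9, 190, 92.8, 176 and 63.1 in TKO EB, 95.3, 64.3 and 79.9 in WT EB, 582, 514 and 697 in TKO ESC, and 559, 332 and 243 in WT ESC. EB and ESC arrays did not overlap, and lines Dutch and 14-14-4 were again the highest of TKO EB. The fall was -2.42 ± 0.37 in TKO (adjusted p = 4.82e-04, 5.35-fold) and -2.18 ± 0.41 in WT (adjusted p = 0.00172, 4.52-fold), and no array left out ended either call.

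Trim28, its heterochromatin partner, fell least among the called genes. It read (1456308_x_at) 8837, 9435, 7584, 10648 and 6896 in TKO EB, 5547, 7686 and 7187 in WT EB, 12769, 12738 and 13141 in TKO ESC, and 13381, 12077 and 12033 in WT ESC. All EB arrays were below all ESC arrays. The fall was -0.59 ± 0.13 in TKO (adjusted p = 0.00500) and -0.89 ± 0.15 in WT (adjusted p = 8.93e-04), and the second probe set (1415869_a_at) gave -0.71 ± 0.14 and -0.97 ± 0.15 with the same calls.

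The falls ran beside the loss of pluripotency markers, of which 6 of 10 fell in TKO EB (median -3.77) and 10 of 10 in WT EB (median -6.62). Over all genes 15.1% fell and 21% rose in TKO, and 17.4% fell and 26.2% rose in WT. Without line Ta1-12, 1 of 10 pluripotency markers was called lower in TKO EB (median -2.57), where 8.56% of all genes fell. Without TKO EB of lines Dutch and 14-14-4 all 10 were (median -5.68), where 19.7% of all genes fell. In the summed levels of these markers, lines Dutch and 14-14-4 were highest among EB (74076 and 59887). Of the 10 markers 5 lay below the floor in TKO EB Ta1-12, 1 in 7-4-1 and none in the other TKO EB arrays, against 2 or 3 in each WT EB array. Of 15 proliferation markers tested, none was called in TKO EB against TKO ESC and 7 fell in WT EB against WT ESC. Their summed intensity was 68220 to 136959 in TKO EB, lowest in Ta1-12, 44075 to 89343 in WT EB, 106037 to 124623 in TKO ESC and 109553 to 117269 in WT ESC. Fibroblast markers rose for 8 of 10 in TKO and 8 of 10 in WT, endoderm markers likewise for 8 of 10 in each, and of 8 cardiac markers 4 rose in TKO (Actc1, Tnnt2, Hand2 and Myh7) and 5 in WT (these and Ryr2). Without line Ta1-12 the counts in TKO were 7 of 10 fibroblast, 5 of 10 endoderm and 3 of 8 cardiac markers higher and 0 of 15 proliferation markers called, where 13.1% of all genes rose. The part of these cell types in the members' falls was not tested. Without TKO EB of lines Dutch and 14-14-4, 7 members were called in TKO, where 19.7% of all genes fell, with Dnmt3l at -6.03, Dnmt3b at -3.32 and Tet1 at -3.55. Without line Ta1-12, 3 were called in TKO (Tet1 at -2.25, Zfp57 at -2.10 and Trim28 at -0.49), where 8.56% of all genes fell. The other 4 kept their sign and were not called, with Dnmt3l at -3.23 (adjusted p = 0.0797), Dnmt3b at -1.89 (adjusted p = 0.159), Tet2 at -1.28 (adjusted p = 0.0553) and Dnmt3a at -0.61 (adjusted p = 0.0674).

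Between genotypes at the EB stage, no member gene was called in TKO EB against WT EB, as over all genes (0%). For none of the 22 probe sets did the arrays separate fully, where 3.8% of all probe sets did. At an unadjusted p below 0.05 there were 5 of 9 member genes and 2094 of 14364 genes. The WT EB arrays also served in WT EB against WT ESC, so the comparisons share them. The largest members by size were Dnmt3l (2.79, 95% interval 0.33 to 5.26, adjusted p = 0.348), Dnmt3b (1.36, -0.38 to 3.10, 0.469) and Uhrf1 (1.27, 0.38 to 2.17, 0.329), and the median of the 9 was 0.77 against -0.10 over all genes. Dnmt1 stood at 0.77 (0.20 to 1.33, adjusted p = 0.329). These intervals are for single genes and not adjusted.

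The calls in this comparison depended on line Ta1-12. Its EB array was the lowest of TKO EB for Uhrf1, Dnmt1, Tet1 (1455425_at) and Dnmt3a (1423064_at), so leaving it out raises their TKO EB means. That array was also the lowest for Dnmt3l, Zfp57 and Trim28, which were not called without the line. On 1424156_at the Rbl1 signal of the line was at the WT level, and line Dutch, which was kept, read 377 in EB. On 1425166_at Dutch (136) was within the WT EB range of 114 to 174 and Ta1-12 (194) above it. A link between the Rbl1 signal and these calls was not tested. Without line Ta1-12, 3 of 9 member genes were called higher in TKO EB, where 2.58% of all genes were called higher and 4.64% lower. Uhrf1 was higher by 1.62 ± 0.30 (adjusted p = 0.0155, 3.08-fold) and on its second probe set by 2.06 ± 0.31 (adjusted p = 0.00773, 4.16-fold). Dnmt3a (1423064_at) was higher by 1.02 ± 0.19 (adjusted p = 0.0159) while its 4 other probe sets were not called and differed by -0.06 to -0.64. Tet1 was higher by 1.63 ± 0.41 (adjusted p = 0.0409), with 2.03 ± 0.44 (adjusted p = 0.0244) on 1429448_s_at and 1.48 ± 0.40 (adjusted p = 0.0537) on 1419896_at. Dnmt1 was 0.92 ± 0.25 higher with an adjusted p of 0.0548 on 1422946_a_at, and its other probe sets were called (1.13 ± 0.29, adjusted p = 0.0460, and 1.15 ± 0.28, adjusted p = 0.0354). When only the EB array of this line was left out, Dnmt1 was called too (0.92, adjusted p = 0.0383), as were Uhrf1 (0.00820), Dnmt3a (0.0136) and Tet1 (0.0260). In that setting 873 of all 31061 probe sets were called higher and 1587 lower. Dnmt3l, Dnmt3b, Tet2, Zfp57 and Trim28 were not called without line Ta1-12 (adjusted p between 0.0719 and 0.604). The second Trim28 probe set was called higher when only the EB array of this line was left out (0.41, adjusted p = 0.0336).

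**Figure D4:**
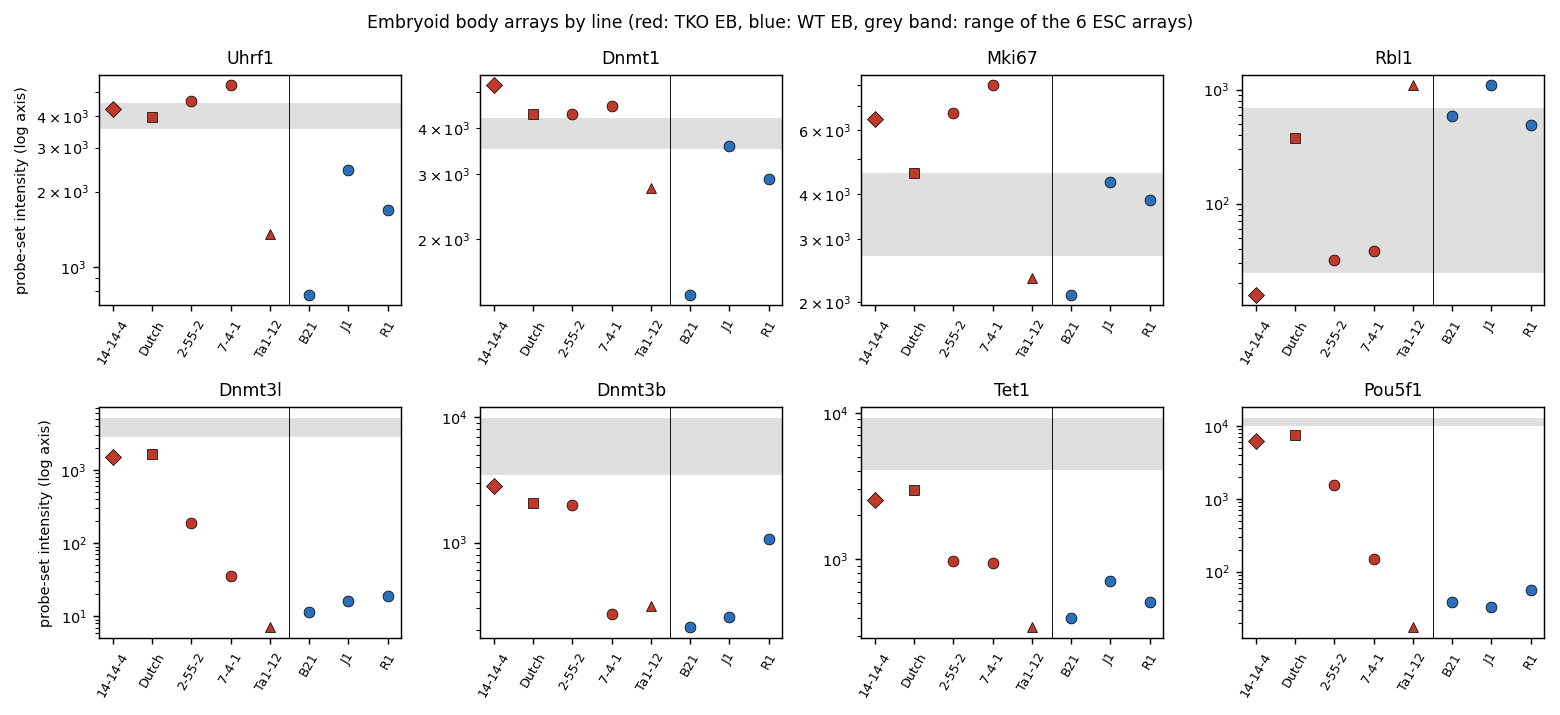
Intensity on a log axis of 5 member genes and of Mki67, Rbl1 and Pou5f1 in the EB arrays, TKO lines (red) left of WT lines (blue), with the range of the 6 ESC arrays as a grey band. For Uhrf1 and Dnmt1 the 4 TKO lines other than Ta1-12 lie above all 3 WT lines, and Ta1-12 lies within the WT range.

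Calls of the proliferation markers depended on line Ta1-12 as well. Between TKO EB and WT EB none of 15 was called over all arrays. Without line Ta1-12, 13 were higher, with a median of 0.95, where 2.58% of all genes were higher and 4.64% lower. Of 10 pluripotency markers 6 were then higher as well, with a median of 4.26. The part of both sets of markers in the members' differences was not tested. Without TKO EB of lines Dutch and 14-14-4, 0 of 9 members and 0 of 14364 genes (0%) were called between the genotypes, the same counts as over all arrays.

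At the ESC stage no member was called in TKO ESC against WT ESC, where again 0% of all genes were, and 1 of 9 member genes (Tet2) and 420 of 14364 genes had an unadjusted p below 0.05. Tet2 differed by 0.93 (95% interval 0.07 to 1.80, adjusted p = 1). All 4 Tet1 probe sets were higher in every TKO ESC array than in any WT ESC array, by 0.64 to 1.04, a pattern that 13.2% of all probe sets showed in one direction or the other. The dim 1419897_at separated only barely, at 65.171 in TKO ESC 7-4-1 against 65.165 in WT ESC B21, and adds little. The 95% interval for 1455425_at was -0.65 to 1.98. It rests on the spread shared over all groups. The standard deviation of this probe set on the log2 scale was 0.27 in TKO ESC and 0.28 in WT ESC. In TKO EB it was 1.26 and in WT EB 0.41, so the interval is wider than the ESC arrays alone would show. For Dnmt1 the difference was 0.01 (-0.63 to 0.64), for Uhrf1 0.18 (-0.82 to 1.18) and for Trim28 0.05 (-0.28 to 0.37), all on the log2 scale. For the difference between the genotypes' EB changes 0 of 9 members were called (0% of all genes), and 0 of 9 members and 561 of 14364 genes had an unadjusted p below 0.05.

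Of 41 listed partners of these enzymes (readers of the mark, maintenance and repair factors, heterochromatin partners and methyl donor enzymes), 37 were tested. In TKO EB against TKO ESC 3 rose and 11 fell (median -0.30), where 21% of all genes rose and 15.1% fell (median 0.08). Without line Ta1-12, 2 rose and 7 fell there, where 13.1% of all genes rose and 8.56% fell. In WT EB against WT ESC 5 rose and 13 fell (median -0.31), where 26.2% of all genes rose and 17.4% fell (median 0.13). Mbd2, a reader of methylated CpG, rose by 2.29 ± 0.24 in TKO (adjusted p = 5.20e-05) and 2.66 ± 0.27 in WT (adjusted p = 6.67e-05). The other risers were Zbtb4 and Uhrf2 in TKO (0.78 and 0.60) and Mbd1, Zbtb33, Zbtb4 and Ehmt2 in WT (2.14, 1.15, 0.88 and 0.54), named because they were few. Among the falling partners were Rif1, a replication timing factor (-0.96 in TKO and -1.64 in WT), Usp7, a deubiquitinase that binds Dnmt1 and Uhrf1 (-0.79 and -1.15), and Parp1, of single-strand break repair (-0.90 and -1.57). Apex1, a nuclease of base excision repair, and Daxx, a histone chaperone, fell by 0.55 and 0.83 on the log2 scale in TKO. Directions of the medians held after quantile normalization and median centring.

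Between TKO EB and WT EB none of the 37 partners was called over all arrays. Without line Ta1-12, 5 were higher and 1 lower, where 2.58% of all genes were higher and 4.64% lower. The 5 were Hells, a chromatin remodeller needed for methylation (1.42), Parp1 (1.03), Rif1 (0.82), Suv39h2 (1.55) and Cbx1 (0.44), and Mbd2 was lower (-0.72). Over all arrays Hells stood at 1.18 ± 0.32, Parp1 at 0.81 ± 0.24, Rif1 at 0.71 ± 0.21 and Pcna at 0.47 ± 0.15 (adjusted p = 0.329 for each).

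Imprinted genes, whose marks Zfp57 and Trim28 guard, were called higher in EB more often than lower. Of 30 listed, 28 were tested, and 13 rose and 1 fell in TKO EB against TKO ESC (median 0.72), where 21% of all genes rose and 15.1% fell (median 0.08). Without line Ta1-12, 12 rose and 2 fell there, where 13.1% of all genes rose and 8.56% fell. In WT EB against WT ESC 14 rose and 2 fell (median 0.77), where 26.2% of all genes rose and 17.4% fell (median 0.13). Dlk1, a membrane protein related to Notch ligands, read (1449939_s_at) 16850, 19427, 20898, 8368 and 12724 in TKO EB, 16133, 10817 and 11448 in WT EB, 43.0, 46.5 and 54.1 in TKO ESC, and 51.7, 92.0 and 167 in WT ESC. It was far above the ESC level in every EB array, by 8.29 ± 0.36 in TKO (adjusted p = 5.70e-08) and 7.09 ± 0.40 in WT (adjusted p = 1.02e-06). Plagl1, a growth regulator of the imprinted gene network, rose by 4.87 ± 0.35 in TKO and 3.14 ± 0.39 in WT, and Ndn by 2.60 ± 0.25 and 2.35 ± 0.28. Igf2, the fetal growth factor, rose by 6.30 ± 0.67 in TKO and 5.40 ± 0.74 in WT, and Mest by 2.27 ± 0.29 and 2.51 ± 0.33. Phlda2 fell in both (-2.98 and -3.91) and Ascl2 in WT (-2.02).

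At the EB stage the imprinted genes with the smallest adjusted p between the genotypes were Rian, Meg3 and Mirg, maternally expressed noncoding RNAs that lie beside Dlk1 on chromosome 12. Meg3 read (1439380_x_at) 51.7, 53.0, 46.8, 1241 and 5832 in TKO EB against 13547, 12392 and 4798 in WT EB, and 66.4, 5079 and 6937 in TKO ESC against 6597, 4444 and 5413 in WT ESC. Lines 2-55-2, 14-14-4 and 7-4-1 were thus near the 40th percentile of the arrays (51.3 to 64.4) in EB, and 7-4-1 was so in ESC too, while line Ta1-12 lay within the WT range in EB and above it in ESC. The difference in EB was -5.23 ± 1.72 for Meg3, -3.85 ± 1.05 for Rian and -2.99 ± 0.77 for Mirg (adjusted p = 0.329 for each), and without line Ta1-12 all 3 were called (-6.37, adjusted p = 0.0257, -4.59, 0.00992, and -3.43, 0.00805). They were the only called genes among the 28 there, all lower, where 4.64% of all genes were lower. Rian read 39.2, 27.2, 32.6, 85.5 and 559 in TKO EB against 1308, 1439 and 603 in WT EB. Mirg read 49.9, 59.0, 54.8, 62.7 and 257 in TKO EB against 786, 917 and 312 in WT EB. For both, no TKO EB array reached the lowest WT EB array. Lines Dutch and Ta1-12 also had the highest Rbl1 of the TKO arrays at each stage, and whether the patterns are linked was not tested. In TKO ESC against WT ESC no imprinted gene was called. Plagl1 read 542, 875 and 386 in TKO ESC against 1071, 2670 and 3418 in WT ESC (-1.91 ± 0.39, adjusted p = 0.574).

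**Figure D5:**
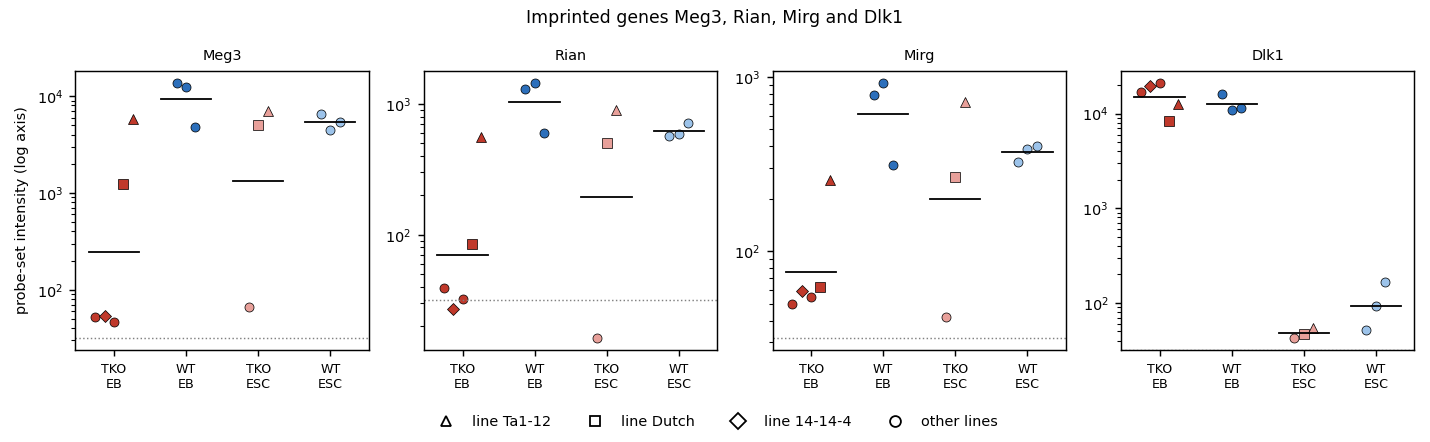
Intensity on a log axis of Meg3, Rian, Mirg and Dlk1 in the 14 arrays, by group, with bars at the geometric mean and the floor of 32 dotted where it lies in range. Meg3 lay between 46.8 and 53.0 in 3 TKO EB lines and at 66.4 in TKO ESC of line 7-4-1, while Dlk1 was 8368 or more in every EB array.

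The genes whose log2 intensity most resembled each member's over the 14 arrays were taken as the 3 with the highest Pearson r, as a description of arrays that share stage and line. For Uhrf1 these were Ezh2 (r = 0.987), Cdc7 (0.983) and Ndc80 (0.983), and for Dnmt1 they were Rfc2 (0.971), Topbp1 (0.954) and Ccna2 (0.951). Dnmt3l most resembled Dppa4 (0.997), Esrrb (0.993) and Utf1 (0.993). Dnmt3b was nearest L1td1 (0.971), Tet1 nearest Zfp850 (0.986), Tet2 nearest Gabbr1 (0.948) and Dnmt3a, on 1423064_at, nearest Msantd3 (0.965). Zfp57 was nearest Cnpy1 (0.977) and Trim28 nearest Rcc1 (0.989).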

How the data were processed

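Total RNA of 14 cultures was hybridised to Affymetrix mouse arrays. The authors deposited 1 intensity per probe set and array, on a linear scale from 0.596 to 25702. The sources used here do not state how these intensities were summarised and scaled. No further scaling was applied in the main analysis, so differences in brightness between arrays enter the values.

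Control probe sets (64) were left out, intensities under a floor of 32 were set to 32, and log2 was taken, which understates changes of dim probe sets. A probe set was tested if its intensity exceeded the 40th percentile of the array on 3 arrays or more (31061 probe sets, 14364 genes). Gene names came from the platform annotation, in which 34945 probe sets have 1 symbol, 932 several and 9160 none, and of which 34754 were matched to RefSeq on GRCm38.p6. Groups came from the titles. Models with 1 mean per group were fitted over all 14 arrays in R 4.3.3 with the package limma 3.58.1, by lmFit and contrasts.fit and then eBayes with a trend, with Benjamini-Hochberg adjustment within each of 5 comparisons, and every adjusted p is from limma. Figures used matplotlib 3.10.9 in Python 3.11.15.

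The members, gene lists and tests were chosen with earlier results of these data known. The text names every member probe set, Rb family and pluripotency checks, up to 4 genes of the partner and imprinted lists with the smallest adjusted p in each comparison, and the 3 genes most like each member. Genes outside that rule, named where a count was small, were chosen after their values were seen, as were the summed marker levels and Pou5f1. In simulated data with 200 of 31061 probe sets changed by 2 on the log2 scale in TKO EB against WT EB, the procedure recovered 77%. The simulated noise was independent between probe sets and equal in spread over the groups. The real TKO EB arrays differ by line, so the 77% checks the procedure and is not the recovery to expect in these data.

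Lines measured as ESC and EB (6 lines, 12 arrays) pair those arrays by the cell line in the titles. Deviations from the group mean correlated within a line at -0.04 (B21), -0.05 (J1), -0.02 (R1), 0.09 (7-4-1), 0.19 (Dutch) and 0.12 (Ta1-12). Alternatives tried were other scalings, floors of 16 and 64, no filter, 1 probe set a gene, other probe sets, fits on fewer arrays, a block for the line, and arrays or lines left out.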

Additional observations from a re-analysis of the deposited data

Results flagged for a closer look

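Among the 23 member probe sets in the 5 TKO EB arrays, 6 had an array far from the other 4. The nominal rate of this rule, for normally spread values, is about 1 group in 20. The share flagged over all probe sets was not computed, so the 6 have no measured background. The array of line Ta1-12 was lowest for all 3 Dnmt1 probe sets, at 2758 (1422946_a_at), 1525 (1435122_x_at) and 670 (1447877_x_at), and for both Uhrf1 probe sets, at 1348 (1415810_at) and 300.1 (1415811_at). Probe sets of 1 gene share their RNA, so these are 2 genes and not 5 separate observations. The array of line Dutch was lowest for the Dnmt3a probe set 1460324_at, at 861. The other groups held 3 arrays and were not examined in this way.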

How the results depend on the processing

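In TKO EB against WT EB, 0 member genes were called over all arrays, 3 without line Ta1-12, and 0 to 4 with single arrays left out. Over all probe sets that comparison gave 0 calls, 1877 without line Ta1-12, 2460 without TKO EB Ta1-12 alone and 20 with a floor of 64. In TKO EB against TKO ESC, 7 members were called, 4 with only the arrays of these groups, 3 without line Ta1-12 and 4 to 7 with single arrays left out. The 4 came without TKO ESC Ta1-12. In WT EB against WT ESC the count was 7, 9 after quantile normalization or median centring, and 6 to 8 with single arrays left out. In TKO ESC against WT ESC and for the difference between the changes it was 0 in every setting run. With the replicate block (cell line, 12 arrays), 7 members were called in TKO and 7 in WT, with Uhrf1 at -1.40 in WT (adjusted p = 0.0352), and no member's call changed. The Dnmt3a probe set 1423066_at in place of 1423064_at reversed the sign in TKO EB against WT EB (-0.17, adjusted p = 0.814) and for the difference between the changes (-0.43, adjusted p = 0.965), neither called. Without the filter neither Dnmt3b in TKO (adjusted p = 0.0699) nor Uhrf1 in WT (0.0634) was called. Quantile normalization moved the median of all probe sets by more than 0.1, to -0.10 in TKO EB against TKO ESC and -0.14 in WT EB against WT ESC, where the deposited scale gave 0.02 in TKO and 0.06 in WT. The causes were not tested. Signals near the floor, as of Tet3 and of Dnmt3l in WT EB, give bounds at most.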
